A study of Mus musculus with 8 samples.

Results

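Hepatic retinoid storage, oxidation and clearance were examined through 9 genes, chosen by gene symbol for their known roles: Lrat, Adh1, Rdh7, Rdh16, Rdh11, Aldh1a1, Aldh1a7, Cyp26a1 and Cyp26b1. All 9 were found among the 41388 features counted in every library, and all 9 passed the filter on low counts. The libraries came from livers of leptin receptor-deficient db/db mice (strain label C57B/6J), littermates randomised at 5 weeks of age and labelled as 10 weeks old. The series text and the study's methods and legends differ on the time from vector to sampling, which was not settled here. Libraries numbered 1 to 4 in each arm came from mice given a tail vein injection of adenovirus for GFP (AdGFP, n = 4, genotype label control) or for NAMPT, the NAD+ salvage enzyme (AdNAMPT, n = 4, genotype label NAMPT overexpression). Both arms thus carried the db/db genotype and an adenovirus, and lean or uninjected livers were not analysed here. The comparison asks how these genes differed between the livers of diabetic mice given the NAMPT vector and of those given the control vector.

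The liver holds most of the body's vitamin A as retinyl esters in stellate cells, where lecithin retinol acyltransferase (Lrat) makes them. Retinol is oxidised reversibly to retinal by alcohol dehydrogenases such as Adh1 and by short-chain retinol dehydrogenases of the Rdh family, and retinal is oxidised irreversibly to retinoic acid by Aldh1a enzymes, all with nicotinamide cofactors. Retinoic acid acts on nuclear receptors that bind paired hexamers in DNA, and the cytochromes Cyp26a1 and Cyp26b1 hydroxylate it for clearance.

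Promoter sequence is shown where it bears on how these genes are related or read out. Cyp26a1 is a well-known transcriptional target of retinoic acid receptors, so its 250 bases upstream of the RefSeq start site are given, from chr19:37697558-37697807 on the plus strand of GRCm38.p6. Capitals mark the only match, among the 12 RefSeq promoter windows of the 9 genes, to a direct repeat of receptor hexamers spaced by 1, 2 or 5 bases, searched on both strands with any pairing of the consensus hexamer AGGTCA, the variant hexamer AGTTCA, the variant hexamer GGGTCA and the variant hexamer GGTTCA.
Cyp26a1: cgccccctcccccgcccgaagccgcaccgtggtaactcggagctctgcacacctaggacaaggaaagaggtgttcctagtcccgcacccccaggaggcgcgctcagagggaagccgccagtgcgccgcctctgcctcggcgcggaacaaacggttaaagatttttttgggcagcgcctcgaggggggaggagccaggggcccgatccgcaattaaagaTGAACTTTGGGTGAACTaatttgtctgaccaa

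On the other strand the capitals read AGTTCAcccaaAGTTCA, a direct repeat spaced by 5 bases at chr19:37697776-37697792, between 32 and 16 bases upstream of the start site. Such a repeat was found in 32 of 32851 promoter windows of 300 bases (0.0974%), and repeats spaced by 1 or 2 bases in 0.222% and 0.268%. A match describes letters in this window and not occupancy, which these data did not measure.

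Aldh1a1 and Aldh1a7 lie next to each other on chromosome 19, with 49490 bases between them on opposite strands. The 120 bases upstream of a start site of each are shown because they share an identical run of 65 bases, in capitals, at the same distance from the start (94 to 30 bases upstream). The Aldh1a1 stretch is chr19:20601848-20601967 on the plus strand, upstream of the downstream-most of its RefSeq starts, and the Aldh1a7 stretch is chr19:20727557-20727676 on the minus strand.
Aldh1a1: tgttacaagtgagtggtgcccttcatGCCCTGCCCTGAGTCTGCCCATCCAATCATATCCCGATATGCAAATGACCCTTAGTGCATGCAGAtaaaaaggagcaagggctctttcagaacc
Aldh1a7: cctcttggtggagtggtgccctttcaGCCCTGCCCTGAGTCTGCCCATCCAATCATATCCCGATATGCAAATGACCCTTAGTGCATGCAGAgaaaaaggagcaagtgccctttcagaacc

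Rdh16 and Rdh7 lie on chromosome 10 with 37462 bases between them, a gap that holds the related genes Rdh19 and Rdh16f2. The longest run shared by the upstream windows of Rdh16 and Rdh7 was 12 bases. In the transcripts, 151 stretches of 50 bases, the read length, were identical between Aldh1a1 and Aldh1a7 (3.06% and 7.49% of their stretches). Of the stretches of Rdh7 and Rdh16, 12.9% and 14% occurred in other genes, mostly other Rdh genes, and Rdh16 shares 753 exonic bases with the pseudogene Rdh18-ps on the same strand. Only uniquely aligned, unambiguous reads were counted, so the counts of these 4 genes leave out reads from the shared stretches. Adh1 overlaps Gm16559 on the other strand by 408 exonic bases, and whether strand was used in counting is not given in the sources used here.

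Libraries held 12006713 to 19879814 counts, with at least 1 count for 18153 to 19831 features, so that 3 counts correspond to 0.151 to 0.250 CPM (counts scaled to the library total). These limits cover counting error only. Nampt did not set the arms apart, at 102.3 to 152.7 CPM in AdGFP and 120.5 to 177.8 CPM in AdNAMPT (log2 fold change 0.08, SE 0.15, adjusted p 0.915 by limma), so AdNAMPT here means the libraries labelled AdNAMPT and each direction rests on those labels. AdNAMPT 1 stood apart: female-biased liver genes had a summed level of 207.7 CPM, whereas AdNAMPT 2 to 4 held 1155 to 1230 CPM and AdGFP 1175 to 1626 CPM. Male-biased liver genes summed to 3500 CPM in it, and to 879 to 1046 CPM in AdNAMPT 2 to 4 and 731 to 1003 CPM in AdGFP. AdNAMPT 4 held 21.3 CPM of Xist against at most 0.500 CPM in each of the other 7 libraries. Mitochondrial ribosomal RNA was 1.77% to 2.56% of counts in AdGFP and 0.863% to 1.62% in AdNAMPT. Gm42418, a gene model, took 0.996% to 2.25% of counts in AdGFP and 0.200% to 0.233% in AdNAMPT, so the arms did not overlap in either measure, and the part of RNA or library preparation in the retinoid values was not tested.

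The retinoid genes spanned a wide range of levels in these livers. On the length-scaled RPKM scale, the median level over the 8 libraries was 1454 for Aldh1a1, 1006 for Adh1 and 779.6 for Rdh7. Intermediate levels were measured for Aldh1a7 (247.5 RPKM), Rdh16 (49.3 RPKM), Cyp26a1 (30.8 RPKM) and Rdh11 (22.4 RPKM), and the lowest for Lrat (5.46 RPKM) and Cyp26b1 (1.02 RPKM). The most abundant transcripts thus encoded enzymes that act on retinol and retinal, and the least abundant the ester-forming Lrat and the clearance enzyme Cyp26b1. The ranges over all 8 libraries did not overlap between Rdh7 and Aldh1a7, between Aldh1a7 and Rdh16, between Rdh11 and Lrat, or between Lrat and Cyp26b1. The ranges of the other neighbours overlapped, although within libraries Aldh1a1 exceeded Adh1 in 8 of 8 and Adh1 exceeded Rdh7 in 7 of 8. Rdh16 exceeded Cyp26a1 in 5 of 8 libraries and Cyp26a1 exceeded Rdh11 in 4 of 8, so the order of these 3 genes was not settled. The whole order also depends on the exonic length of each gene model, such as 6217 bases for Rdh16 and 1678 for Rdh7. It leaves out reads shared between genes as well.

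**Figure D1:**
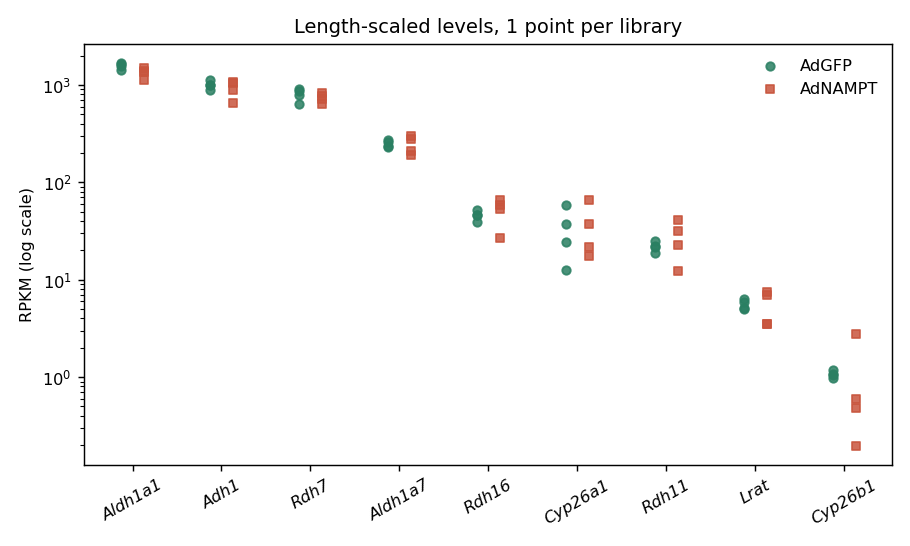
RPKM on a log scale for the 9 retinoid genes, ordered by their median over 8 libraries, with 1 point per library (green circles AdGFP, red squares AdNAMPT). Aldh1a1, Adh1 and Rdh7 have medians of 779.6 RPKM or more, Cyp26b1 has a median of 1.02 RPKM, and the AdNAMPT points of Cyp26b1 spread the most.

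Between the arms, 0 of the 9 genes passed the limma threshold (adjusted p of at most 0.05 over 12270 genes), where 34 of all tested genes did (0.277%), 2 of them higher (0.0163%) and 32 lower (0.261%) in AdNAMPT. The adjusted p of the 9 genes by limma ranged from 0.419 to 0.954, and 1 of them, Aldh1a1, had an unadjusted p under 0.05 against 9.69% of all tested genes. Estimates were lower in AdNAMPT for 7 genes and higher for 2 (Rdh16 and Rdh11), with a median log2 fold change of -0.17 against 0.0015 over all tested genes, 49.6% of which had a lower estimate. This tally rested on single libraries: without AdNAMPT 2, 4 of the 9 were lower and the median was 0.0038, without AdNAMPT 1, 6 were lower with a median of -0.06, and without AdNAMPT 4, 8 were lower with a median of -0.28. edgeR's quasi-likelihood test also called 0 of the 9 genes, with 1 at an unadjusted p under 0.05.

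For most of these genes the AdNAMPT libraries were more dispersed than the AdGFP libraries. The coefficient of variation of CPM was higher in AdNAMPT for 8 of the 9 genes, against 59.6% of all tested genes. AdNAMPT 1 had the lowest TMM-scaled level of the 8 libraries for 6 of the 9 (Lrat, Adh1, Rdh16, Rdh11, Aldh1a1 and Aldh1a7) against 22.7% of all tested genes, and AdNAMPT 4 the highest for 5 (Lrat, Rdh11, Aldh1a7, Cyp26a1 and Cyp26b1) against 12.5%. These are the libraries that stood apart in sex-biased liver genes and in Xist, respectively, and the part of either in the retinoid values was not tested beyond the fits without them. Summed over the 9 genes, CPM were 5715 in AdNAMPT 1, 7358 to 7589 in the other AdNAMPT libraries and 6930 to 8263 in AdGFP.

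**Figure D2:**
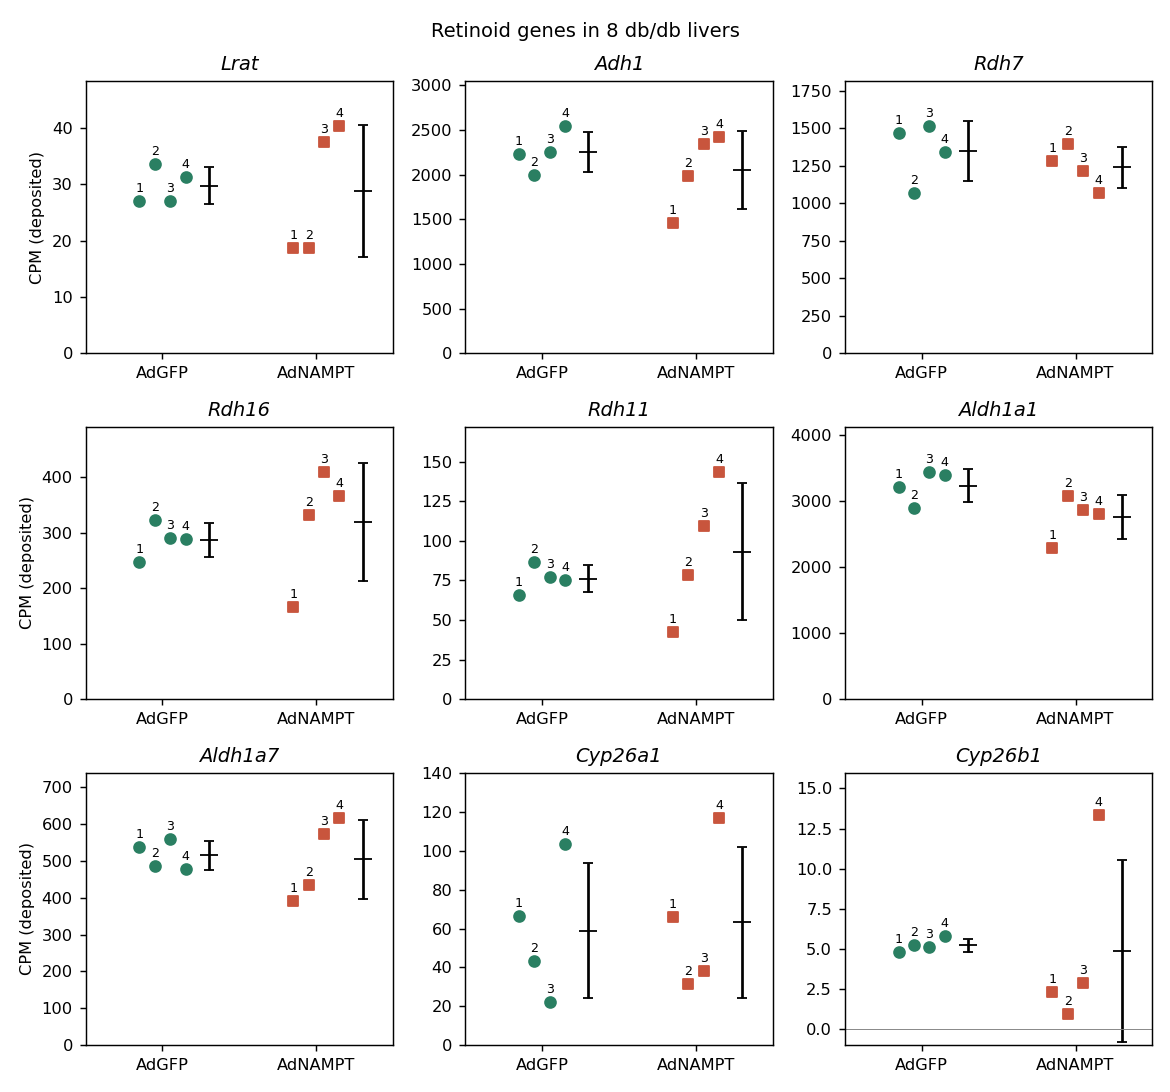
Deposited CPM of each retinoid gene in the 4 AdGFP (green circles) and 4 AdNAMPT (red squares) libraries, numbered by replicate, with the mean and SD of each group beside the points. AdNAMPT 1 is the lowest point in 6 panels, AdNAMPT 4 is the highest Cyp26b1 point at 13.3 CPM, and the groups overlap in all 9 panels.

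Storage was represented by Lrat (ENSMUSG00000028003, chromosome 3, 82892579 to 82903973, minus strand). Lrat was at 27.0, 33.7, 27.1 and 31.3 CPM in AdGFP 1 to 4 and at 18.7, 18.8, 37.6 and 40.3 CPM in AdNAMPT 1 to 4. On deposited CPM, AdNAMPT 1 and 2 lay below all AdGFP libraries and AdNAMPT 3 and 4 above them, whereas on TMM-scaled CPM AdNAMPT 3 (36.3) was just below AdGFP 2 (36.6). The means of 29.8 ± 3.28 and 28.8 ± 11.7 CPM (SD, n = 4 each) were close while the spread was not. Its log2 fold change in limma was -0.17 (SE 0.23, adjusted p 0.854), equal to 0.887-fold (95% confidence interval 0.629 to 1.25). Its sign turned without AdNAMPT 1 (0.021) or AdNAMPT 2 (0.17). Markers of stellate cells, the cells that express Lrat in liver, were read beside it. The 14 genes of that list, Lrat included, summed to 391.4 to 451.2 CPM in AdGFP and 428.5 to 496.4 CPM in AdNAMPT on the deposited scale. In the TMM-scaled limma fit 6 were lower, 8 were higher and 0 passed the threshold. None of them (0) was at 0 counts in all libraries. At an unadjusted p under 0.05 there were 3 higher and 0 lower, against 4.65% and 5.04% of all tested genes. They were the collagen genes Col1a1 (log2 fold change 0.64, adjusted p 0.453 by limma) and Col1a2 (0.44, adjusted p 0.503), and the growth factor receptor gene Pdgfrb (0.33, adjusted p 0.382). Pdgfrb had its groups apart on both scales. Of all tested genes, 2.09% separated with AdNAMPT higher on TMM-scaled CPM and 7.36% on deposited CPM. The part of these 3 genes in the Lrat values was not tested. In bulk liver RNA, the number of stellate cells and the Lrat RNA per cell cannot be told apart.

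The interconversion of retinol and retinal was represented by Adh1, Rdh7, Rdh16 and Rdh11. Adh1 (ENSMUSG00000074207, chromosome 3, 138260991 to 138290698, plus strand), the class I alcohol dehydrogenase that also oxidises ethanol, was at 2234, 1995, 2257 and 2539 CPM in AdGFP 1 to 4 and 1461, 1986, 2343 and 2420 CPM in AdNAMPT 1 to 4. AdNAMPT 1 was the lowest and the other 3 AdNAMPT libraries lay within or just below the AdGFP range. The log2 fold change of -0.22 (SE 0.13, adjusted p 0.629 by limma) corresponded to a fold of 0.858 with a 95% interval of 0.707 to 1.04, and without AdNAMPT 1 it was -0.11.

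Rdh7 (ENSMUSG00000040134, chromosome 10, 127884028 to 127888817, minus strand), a short-chain dehydrogenase abundant in liver, was at 1466, 1065, 1511 and 1338 CPM in AdGFP and 1278, 1396, 1214 and 1067 CPM in AdNAMPT, in replicate order. On this deposited scale AdGFP 2 and AdNAMPT 4 were the low libraries, almost equal, and both groups covered much the same range. On TMM-scaled CPM the range was 1157 to 1579 in AdGFP and 1066 to 1395 in AdNAMPT, with AdGFP 2 the only AdGFP library inside the AdNAMPT range. In limma the log2 fold change came to -0.22 (SE 0.12, adjusted p 0.589), equal to 0.859-fold (95% confidence interval 0.719 to 1.03). The estimate was -0.12 without AdNAMPT 4, -0.13 without AdNAMPT 3 and -0.33 without AdNAMPT 2 (unadjusted p 0.0190, adjusted p 0.390 by limma).

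Rdh16 (ENSMUSG00000069456, chromosome 10, 127801152 to 127846565, plus strand), a related retinol and sterol dehydrogenase, was at 246.2, 322.9, 289.7 and 288.5 CPM in AdGFP 1 to 4 and 166.7, 332.5, 408.9 and 366.6 CPM in AdNAMPT 1 to 4. On deposited CPM, AdNAMPT 1 lay below the AdGFP libraries and the other 3 AdNAMPT libraries above them, but on TMM-scaled CPM AdNAMPT 2 (332.1) was below AdGFP 2 (350.6). With all libraries the log2 fold change was 0.13 (SE 0.18, adjusted p 0.868 by limma), and without AdNAMPT 1 it was 0.30 (unadjusted p 0.0177, adjusted p 0.376 by limma). It was 0.031 without AdNAMPT 3, 0.028 without AdNAMPT 4, 0.045 without AdGFP 1, and -0.038 without sample weights, so its direction depended on the weighting.

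Rdh11 (ENSMUSG00000066441, chromosome 12, 79174337 to 79192293, minus strand), which favours the reduction of retinal with NADPH, was at 65.7, 86.6, 76.9 and 75.3 CPM in AdGFP 1 to 4 and 42.1, 78.1, 109.2 and 143.4 CPM in AdNAMPT 1 to 4. AdNAMPT 1 was below the AdGFP range, AdNAMPT 2 within it and AdNAMPT 3 and 4 above it. limma put the log2 fold change at 0.20 (SE 0.23, adjusted p 0.832) with all libraries, 0.44 without AdNAMPT 1 (unadjusted p 0.0226, adjusted p 0.402 by limma) and -0.078 without AdNAMPT 4. It was 0.0087 without AdNAMPT 3 and 0.054 without sample weights. The sign of Rdh11 turned only without AdNAMPT 4, but the estimate was near 0 in these other fits as well.

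Formation of retinoic acid was represented by Aldh1a1 (ENSMUSG00000053279, chromosome 19, 20601961 to 20643462, plus strand), the main retinal dehydrogenase of liver. Aldh1a1 was at 3222, 2892, 3442 and 3404 CPM in AdGFP 1 to 4 and 2289, 3079, 2862 and 2802 CPM in AdNAMPT 1 to 4. On this scale the groups overlapped, since AdNAMPT 2 exceeded AdGFP 2. On TMM-scaled CPM they did not: the values were 3380, 3141, 3596 and 3555 in AdGFP and 2215, 3076, 2765 and 2801 in AdNAMPT. TMM factors were 0.947 to 0.977 in AdGFP and 1.01 to 1.05 in AdNAMPT, so this separation depended on the scaling, and on it 2.7% of all tested genes separated with AdNAMPT lower (0.856% on deposited CPM).

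Aldh1a1 averaged 3240 ± 251 CPM (SD, n = 4) in AdGFP and 2758 ± 334.8 CPM (SD, n = 4) in AdNAMPT. In limma it had an estimate of -0.29 (log2 fold change, SE 0.10), a fold of 0.815 with a 95% interval of 0.702 to 0.947, an unadjusted p of 0.0122 and an adjusted p of 0.419, which placed it at rank 356 of 12270 genes. It was lower under all 16 alternative settings, from -0.36 to -0.21, with an unadjusted p under 0.05 in 15 of them (0.0537 with library size alone), and the lowest adjusted p was 0.216 by DESeq2. The difference was thus in 1 direction throughout and did not pass the threshold over all genes. Without AdNAMPT 1, its lowest library, the estimate was -0.26.

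Aldh1a7 (ENSMUSG00000024747, chromosome 19, 20692953 to 20727562, minus strand), the rodent paralog that shares the upstream run printed above, did not follow Aldh1a1 library by library. It was at 536.8, 485.7, 558.6 and 478.6 CPM in AdGFP 1 to 4 and 391.6, 435.2, 572.8 and 616.8 CPM in AdNAMPT 1 to 4. On deposited CPM, AdNAMPT 1 and 2 lay below the AdGFP range and AdNAMPT 3 and 4 above it, as for Lrat. On TMM-scaled CPM, AdNAMPT 3 (553.4) lay inside the AdGFP range (499.9 to 583.6). Its log2 fold change in limma was -0.14 (SE 0.12, adjusted p 0.768), equal to 0.909-fold (95% confidence interval 0.752 to 1.10). The difference between the fold changes of Aldh1a1 and Aldh1a7 was not tested.

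Clearance of retinoic acid was represented by the Cyp26 enzymes. Cyp26a1 (ENSMUSG00000024987, chromosome 19, 37697808 to 37701528, plus strand), with the receptor repeat shown above, was at 66.2, 43.1, 22.3 and 103.7 CPM in AdGFP 1 to 4 and 66.0, 31.4, 38.2 and 117.0 CPM in AdNAMPT 1 to 4. The spread within a group exceeded any difference between groups: the highest library was 4.64 times the lowest in AdGFP and 3.72 times in AdNAMPT. Cyp26a1 averaged 58.9 ± 34.9 CPM (SD, n = 4) in AdGFP and 63.1 ± 38.9 CPM (SD, n = 4) in AdNAMPT. In limma the log2 fold change came to -0.15 (SE 0.51, adjusted p 0.954), and the 95% interval of the fold, 0.416 to 1.95, takes in a change of either sign. The sign of the estimate turned in 7 of 16 alternative settings. Its counts were 374 to 1984 reads per library, and the part of depth in this spread was not tested.

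Cyp26b1 (ENSMUSG00000063415, chromosome 6, 84571414 to 84593908, minus strand), expressed in many extrahepatic tissues, was the least abundant of the 9 genes. It was at 4.78, 5.22, 5.14 and 5.77 CPM in AdGFP 1 to 4 (70, 74, 86 and 79 reads) and at 2.33, 0.956, 2.87 and 13.3 CPM in AdNAMPT 1 to 4 (28, 14, 57 and 226 reads). AdGFP libraries were nearly equal, with a coefficient of variation of 7.83%, whereas 3 AdNAMPT libraries lay below all of them and AdNAMPT 4 above, with a coefficient of variation of 116.9%.

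The means of Cyp26b1, 5.23 ± 0.409 and 4.87 ± 5.69 CPM (SD, n = 4 each), differed by less than the spread of the AdNAMPT libraries. The limma log2 fold change, averaged on the log scale, was -0.95 (SE 0.54, unadjusted p 0.106, adjusted p 0.627), a fold of 0.518 with a 95% interval of 0.228 to 1.18, while edgeR's quasi-likelihood fit, closer to the means, gave -0.17 with an unadjusted p of 0.781. Without AdNAMPT 4 the log2 fold change was -1.90 (SE 0.31, unadjusted p 9.315e-05, adjusted p 0.0386 by limma), which was the only fit of 17 in which any of the 9 genes passed the threshold. Without AdNAMPT 3 it was -1.57 (unadjusted p 0.0170, adjusted p 0.340 by limma), without AdNAMPT 1 it was -0.61 (unadjusted p 0.306) and without AdNAMPT 2 it was -0.28 (unadjusted p 0.540). The direction was lower in all of these fits, and the call rested on leaving out the library with the Xist reads.

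**Figure D3:**
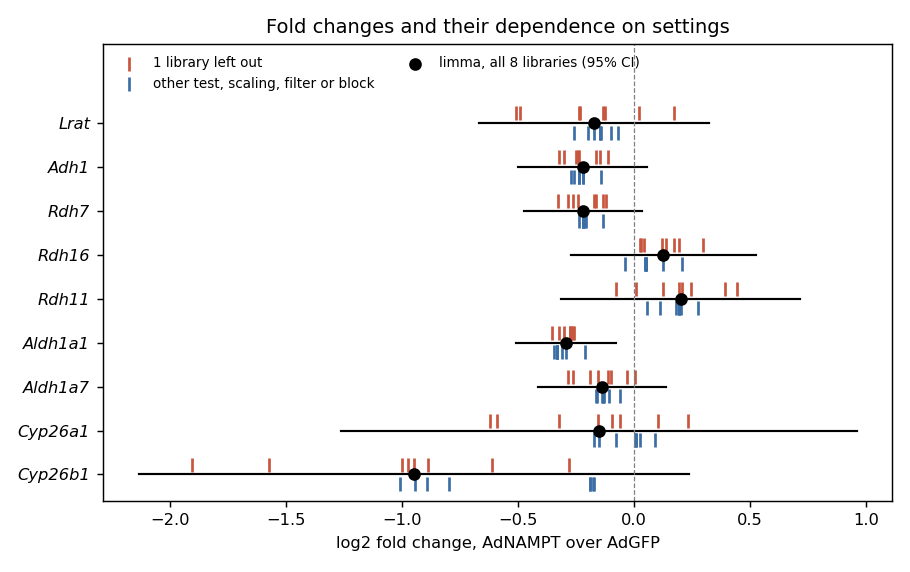
Log2 fold change of each retinoid gene, AdNAMPT over AdGFP, from limma with all 8 libraries (black points, bars 95% confidence intervals), with the estimates after leaving out 1 library (red ticks) and under other tests, scalings, filter or block (blue ticks). Aldh1a1 has the only interval that leaves out 0, and Cyp26b1 moves between -1.90 and -0.17.

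The other genes of retinoid handling were read from 4 lists holding 61 genes, of which 45 passed the filter on low counts. None of the 45 (0) passed the limma threshold, the lowest adjusted p being 0.233; by edgeR's quasi-likelihood test 0 passed as well. At an unadjusted p under 0.05 there were 3 lower (6.67%, against 5.04% of all tested genes) and 3 higher (6.67%, against 4.65%). In all, 26 had lower and 19 higher estimates in AdNAMPT, with a median log2 fold change of -0.02. The 16 genes under the filter included Rdh16f1, Sdr16c5 and Crabp1 with 0 counts in all libraries, and Aldh1a2, another retinal dehydrogenase, with at most 8 reads. Rdh16f1 overlaps Rdh9 exons on the same strand, and reads that fit both genes were not counted, so its 0 need not mean absence.

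Of 14 tested genes of retinoid transport, esterification and ester hydrolysis, 9 were lower and 5 higher, with a median log2 fold change of -0.09. Rbp4, the plasma carrier of retinol, was at 1091, 1613, 1084 and 1148 CPM in AdGFP and 1144, 974.9, 996.5 and 708.1 CPM in AdNAMPT (log2 fold change -0.44, SE 0.15, unadjusted p 0.0132, adjusted p 0.425 by limma). The arms separated on TMM-scaled CPM and overlapped on deposited CPM, where AdNAMPT 1 exceeded 2 AdGFP libraries. Of all tested genes, 2.7% separated with AdNAMPT lower on TMM-scaled CPM. Stra6l, the liver receptor for that carrier, had a log2 fold change of -0.26 (SE 0.10, unadjusted p 0.0306, adjusted p 0.487 by limma). The widest estimate of this list, chosen after its values were seen, was that of Pnpla3, a lipase acting on lipid droplets that include retinyl esters, at 2.0 on the log2 scale (SE 1.14, adjusted p 0.627 by limma), with AdGFP libraries from 0.410 to 10.1 CPM and AdNAMPT libraries from 0.250 to 24.8 CPM.

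Of 17 tested genes of retinol and retinal oxidation and reduction, 10 were lower and 7 higher, with a median of -0.02. Adh4, an alcohol dehydrogenase efficient with retinol, was at 274.3, 163.9, 208.9 and 201.9 CPM in AdGFP and 172.6, 163.4, 129.1 and 159.0 CPM in AdNAMPT (log2 fold change -0.57, SE 0.14, unadjusted p 0.00194, adjusted p 0.233 by limma). Like Rbp4 it separated on TMM-scaled CPM only, a scale on which 2.7% of all tested genes separated with AdNAMPT lower. Aox1, an aldehyde oxidase that can oxidise retinal, went the other way, from 90.7 ± 6.22 to 113.1 ± 4.16 CPM (SD, n = 4 each; log2 fold change 0.24, SE 0.08, unadjusted p 0.00802, adjusted p 0.383 by limma), and its arms did not overlap on either scale. Rdh14, a retinal reductase of the Rdh11 group, was at 27.0 ± 1.44 and 33.4 ± 2.34 CPM (SD, n = 4 each; log2 fold change 0.23, SE 0.08, unadjusted p 0.0106, adjusted p 0.411 by limma), also without overlap. Background shares for such separation with AdNAMPT higher were 2.09% on TMM-scaled CPM and 7.36% on deposited CPM.

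Retinoic acid binding and clearance genes other than the Cyp26 pair mostly fell under the filter, with 2 of 6 tested, 1 lower and 1 higher. Retinoid receptors and response genes were balanced, 6 lower and 6 higher of 12 tested, with a median of -0.01. Rarg, the gamma retinoic acid receptor, was at 2.47 ± 0.273 and 3.47 ± 0.318 CPM (SD, n = 4 each; log2 fold change 0.40, SE 0.16, unadjusted p 0.0258, adjusted p 0.476 by limma), without overlap on either scale.

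**Figure D4:**
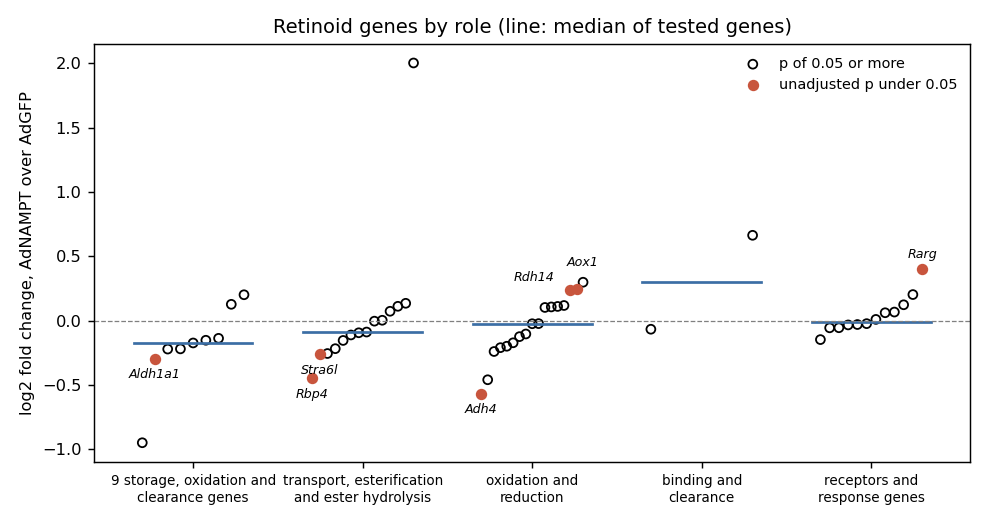
Log2 fold change, AdNAMPT over AdGFP, of each tested gene in the 9-gene set and in the 4 wider retinoid lists, with filled points for an unadjusted limma p under 0.05 and a blue line at the median of each list. Points fall on both sides of 0 in each list, and the filled points range from -0.57 (Adh4) to 0.40 (Rarg).

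Markers of liver cell types were read in the same libraries, without assigning the retinoid genes to these cells. Sums are of deposited CPM, whereas the directions come from the TMM-scaled limma fit. On deposited CPM, 7.36% of all tested genes separated with AdNAMPT higher and 0.856% with AdNAMPT lower. Hepatocyte markers summed to 98653 to 123658 CPM in AdGFP and 100375 to 122886 CPM in AdNAMPT, with 6 of 8 lower. Sinusoidal endothelial markers summed to 296.6 to 353.3 and 328.7 to 365.1 CPM with 4 of 8 lower, and cholangiocyte markers to 26.7 to 42.2 and 29.6 to 44.4 CPM with 2 of 5 tested lower. Kupffer cell markers had lower estimates for 7 of 7, with sums of 257.0 to 318.4 and 186.4 to 309.5 CPM. Pericentral hepatocyte genes were lower for 7 of 9, with sums of 7546 to 10974 and 6260 to 9873 CPM, and periportal genes for 7 of 8, with sums of 7936 to 10123 and 7103 to 10009 CPM. Across these lists 0 genes passed the limma threshold and none was at 0 counts in all libraries. At an unadjusted limma p under 0.05, 3 of 7 Kupffer cell markers and 4 of 8 periportal genes were lower. So were 2 of 9 pericentral genes and 1 of 8 hepatocyte markers, against 5.04% of all tested genes. Higher at that p were 1 of 8 periportal genes, 1 of 8 endothelial markers and 1 of 5 cholangiocyte markers, against 4.65%. Albumin, the defining hepatocyte transcript, was at 76695 to 99419.5 CPM, as the label liver has it. The part of cell composition in the retinoid values was not tested.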

How the data were processed

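RNA was sequenced from 8 livers as single reads of 50 bases. Per the labels and the study's methods, the authors used STAR for alignment to GRCm38 and featureCounts 1.4.5 for counting, keeping reads that aligned to a single place and a single gene. The deposited counts are whole numbers and were not normalised. The deposited CPM scale each count to its library's total, and the deposited RPKM divide those by exonic length. Recomputing CPM and RPKM from the counts gave the deposited values. The labels name ribosomal RNA depletion and the methods poly-A selection, which was not settled.

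Symbols came from GENCODE M21, which matched 40340 of 41388 features, and promoter windows from RefSeq on GRCm38.p6. Features annotated as ribosomal RNA (355) and genes not above 1 CPM in at least 3 libraries were left out, leaving 12270 genes. Counts were scaled by TMM and fitted with voomWithQualityWeights, lmFit and eBayes (limma 3.58.1, edgeR 4.0.16, R 4.3.3), with group as the only term. Benjamini-Hochberg adjusted p of at most 0.05 over all tested genes was the threshold. The weight of AdNAMPT 1 was 0.440, against 0.811 to 1.41 in the other libraries. P-values are two-sided and measure the spread between these mice. Tested on simulated counts for this comparison, limma recovered 188 of 194 genes given a 3-fold change (96.9%) and called 13 others falsely, in 12133 genes. Recovery of smaller changes was not tested. The fold estimates of the retinoid genes, from 0.518 (Cyp26b1) to 1.15 (Rdh11) by limma, were all smaller than 3-fold in either direction. The simulated recovery thus gives no measure of power for changes of their size.

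The 9 genes and the lists were chosen with earlier results of these data known. All 9 were named, as were Nampt and, of the 4 wider lists, genes past the threshold or else up to 3 per list and direction with the smallest unadjusted p under 0.05. Alternatives were edgeR's quasi-likelihood and exact tests, DESeq2 1.42.0, no sample weights, DESeq2 size factors, library size alone, no filter on low counts, replicate number as a block, and each library left out in turn, with the filter then requiring 1 library fewer.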

Additional observations from a re-analysis of the deposited data

Results flagged for a closer look

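Cyp26b1 in AdNAMPT 4 had 13.3 CPM, while AdNAMPT 1 to 3 had 0.956 to 2.87 CPM. This gap was 0.845 of the group's range, above Dixon's 95% critical value for 4 samples. It was the only such value among 18 groups of 4 examined for the 9 genes, where chance gives 0.9. AdNAMPT 4 also held the Xist reads, and the part of that library in the Cyp26b1 value was not tested beyond the fit without it.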

How the results depend on the processing

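The count of 0 changed genes among the 9 was kept in 15 of 16 alternatives, and it ranged from 0 to 1 on leaving out 1 library, the 1 being Cyp26b1 without AdNAMPT 4. The count of the 45 wider genes was 0 throughout. The count over all tested genes, 34, was 66 by edgeR's exact test and 75 by DESeq2, and 28 to 38 on leaving out 1 library. Cyp26a1 turned from -0.15 to 0.0085 by edgeR's quasi-likelihood test, 0.0062 by its exact test, 0.0072 by DESeq2, 0.025 without sample weights, 0.090 with the replicate block, 0.23 without AdGFP 4 and 0.10 without AdNAMPT 2. Rdh11 turned to -0.078 without AdNAMPT 4, Rdh16 to -0.038 without sample weights, Aldh1a7 to 0.0038 without AdNAMPT 2, and Lrat to 0.021 without AdNAMPT 1 and 0.17 without AdNAMPT 2. Away from 0, Cyp26a1 reached -0.62 without AdGFP 3, Rdh11 0.44 without AdNAMPT 1, Aldh1a7 -0.28 without AdNAMPT 4 and Lrat -0.51 without AdNAMPT 3. The cause was not tested. Estimates for Aldh1a1, Adh1, Rdh7 and Cyp26b1 were lower in all 16 alternatives. At an unadjusted p under 0.05 there were 5 of the 9 genes without AdNAMPT 4, 4 without AdNAMPT 3 and 3 without AdNAMPT 1. With library size alone there were 0, and the median log2 fold change of all genes moved to 0.086. The share of all tested genes at that p was not computed for these fits, so no excess among the 9 can be read from them.

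Replicate numbers were shared between the arms, but the mice are different animals. Correlations of the deviations of same-numbered libraries were 0.225, -0.0451, 0.213 and 0.00516, so the numbers were not taken to pair the samples. With the replicate block, 0 of the 9 genes and 41 of all tested genes passed. Cyp26b1 had the fewest reads of the 9 genes, 14 to 226 per library.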
